A study of Arabidopsis thaliana with 12 samples.

Results

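The transcripts of whole 10-day-old seedlings of the Arabidopsis thaliana mbd11 mutant were compared with those of the wild type. Both are of the Col-0 ecotype and were grown from surface-sterilized seeds on MS medium. The comparison rests on 6 of the 12 arrays of the series, 3 titled mbd11 mutant and 3 titled wild type. The other 6 are 3 arrays each of the T-DNA mutants mbd4 and mbd6, of the same ecotype and age, and they serve here to show where mbd11 differs from its sister mutants. All 22746 probe sets that are not Affymetrix controls were tested. The mutants are described as T-DNA insertion lines, and neither the insertion used nor the number of lines per genotype is given in the sources.

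MBD11 belongs to the plant family of methyl-CpG-binding domain proteins. In animals and plants such domains link DNA methylation, through binding to methylated cytosines and recruitment of chromatin-modifying partners, to the activity of nearby chromatin. Several plant members, unlike others of the family, have lost preference for methylated DNA. No probe set was assigned to MBD11 alone, nor to any of the 12 MBD genes listed, so the mutated transcript is not analysed here and gives no check of the genotype labels. The sampled tissue is a mixture of cotyledons, leaves, hypocotyl and root. In such bulk samples fewer cells of a type and less RNA per cell cannot be told apart. The replicates are described as biological, and the p-values measure only the spread between these samples.

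All values below are log2 intensities that were quantile-normalized over the 6 arrays, and each change is mbd11 minus wild type in log2 units with n = 3 and 3. A probe set was called when limma's moderated test gave a Benjamini-Hochberg adjusted p under 0.05, and every gene said to have risen or fallen was also called without mbd11 replicate 2. That array stood apart. Its deposited values had an interquartile range of 2.83, against 3.63 and 3.58 in mbd11 replicates 1 and 3 and 3.83 to 3.9 in wild type. After normalization it correlated with the other mbd11 arrays at r = 0.937 to 0.940, while those 2 correlated with each other at 0.980 and the wild type arrays with each other at 0.995 to 0.996. The 3 mbd11 arrays differed from wild type in control transcripts as well. For plant control transcripts the mean of 3' minus 5' probe sets, a measure of transcript integrity and labelling reach, was 1.98, 1.99 and 2.58 in mbd11 and 1.17, 1.5 and 1.18 in wild type. The 25S rRNA control read 5.25 to 5.43 in mbd11 and 7.79, 5.64 and 7.90 in wild type. Among the mutants mbd4 replicate 3 had comparable readings, a 3' minus 5' difference of 2.08 and a 25S rRNA level of 5.69, and its interquartile range of 3.92 was as wide as that of wild type. Because the 3' minus 5' ranges of mbd11 and wild type do not overlap, RNA quality and genotype cannot be told apart from these 6 arrays alone. Values of mbd4 replicate 3 and of a fit over all 12 arrays with that difference as a covariate are therefore given beside some of the results they touch.

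**Figure D1:**
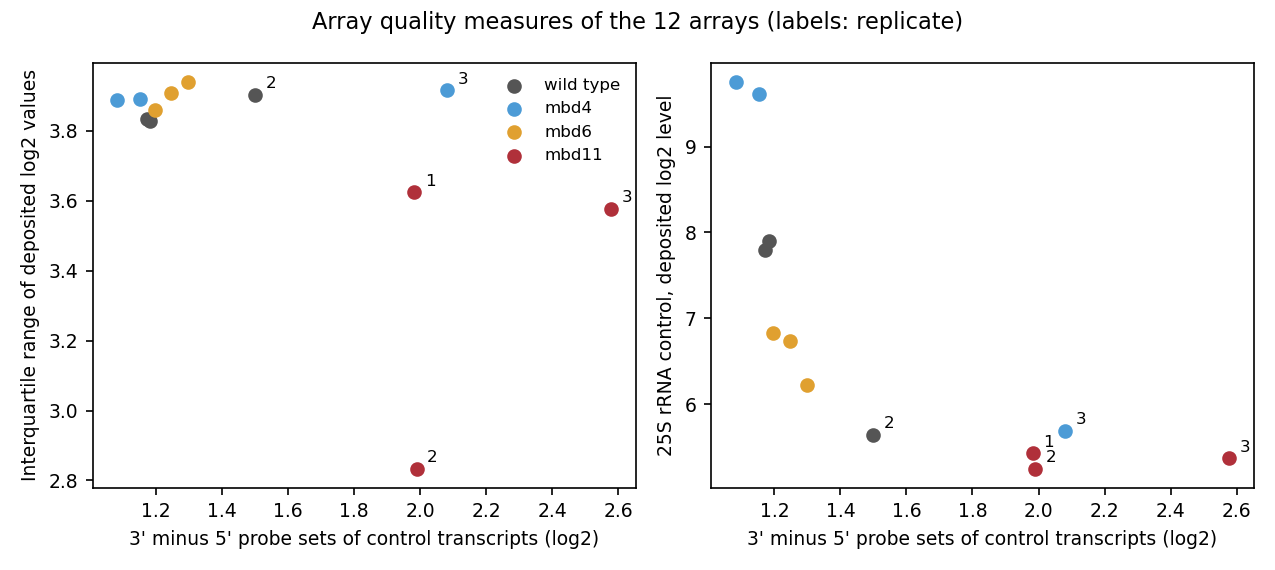
Each point is 1 of the 12 arrays. The x axis is the mean log2 value of 3' minus 5' control probe sets, and the y axes are the interquartile range of the deposited log2 values (left) and the deposited log2 level of the 25S rRNA control (right). The numbers beside points are the replicates of mbd11, wild type replicate 2 and mbd4 replicate 3. The mbd11 arrays lie at 1.98 to 2.58 on the x axis, mbd4 replicate 3 lies at 2.08, and mbd11 replicate 2 has the narrowest range at 2.83.

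The mbd11 seedlings differed from wild type in a large part of the measured transcripts. Of 22746 probe sets 4691 were called, or 20.6%, with 2302 higher (10.1%) and 2389 lower (10.5%), and 4690 of them were called in the same direction without mbd11 replicate 2. The change was at least 1 in log2 for 2386 probe sets and at least 2 for 260. For 42.5% of all probe sets the 3 mbd11 values and the 3 wild type values did not overlap, and this held for all 4691 called. Leaving out an array moved the count widely. Without wild type replicates 1, 2 and 3 it was 1692, 2013 and 1634, and without mbd11 replicate 2 it was 7802. In each of the 6 fits that leave out 1 array 1540 probe sets were called alike, 795 higher and 745 lower. With the 3' minus 5' difference as a covariate the 6 arrays gave 0 calls at adjusted p under 0.05 and 5101 at an unadjusted p under 0.05. With all 12 arrays the same covariate left 5018 calls, against 7867 in the 12-array fit without it. Of the 5018, 3471 were among the 4691 and in the same direction. The 12-array fit pools the spread of all genotypes, and the median SD was 0.11 in wild type and 0.33 in mbd11. Its counts therefore cannot be set directly against those of the 6-array fit.

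The direction of change followed gene length. Nuclear genes were split into 5 classes of equal size by annotated length, introns included. The shortest class, of 78 to 1246 bases, had a median change of 0.26, and 18.5% of its 2674 probe sets rose while 0.374% fell. Its median wild type level was 3.89, against 5.54 to 6.23 in the other classes, and low signal leaves little room for a fall. In the longest class, of 3353 to 26499 bases, the median was -0.13, and 3.33% rose while 14.5% fell. The 3 classes between them had medians of 0.19, 0.02 and -0.09. Every mbd11 replicate showed this order, with medians of 0.21, 0.34 and 0.21 in the shortest class and -0.15, -0.13 and -0.14 in the longest. The trend was steeper among genes with high wild type signal. Over the brighter nuclear genes 41.9% of the shortest class rose and 3.07% fell, with a median change of 0.54, while 2.85% of the longest rose and 25.8% fell, with a median of -0.35.

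In the sister mutants the class medians stayed near 0. Median changes against the same wild type arrays ran from -0.03 to 0.00 over the 5 classes in mbd4 and from -0.04 to -0.01 in mbd6. Direct differences between mbd11 and mbd4 had class medians from 0.26 down to -0.12. Across 13367 nuclear probe sets, which are not independent replicates, the mbd11 change correlated with log2 gene length at r = -0.32 and rho = -0.34. For mbd4 replicate 3 minus the other mbd4 arrays, the comparison with a similar 3' minus 5' difference, that correlation was r = -0.04. With the covariate over 12 arrays the class medians were 0.29, 0.20, -0.01, -0.11 and -0.15. When the length trend was removed from each array, 2058 of the 13367 were called, against 2500 with the trend kept, and 1858 were called alike both ways. The part of RNA quality in the gradient was not tested.

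**Figure D2:**
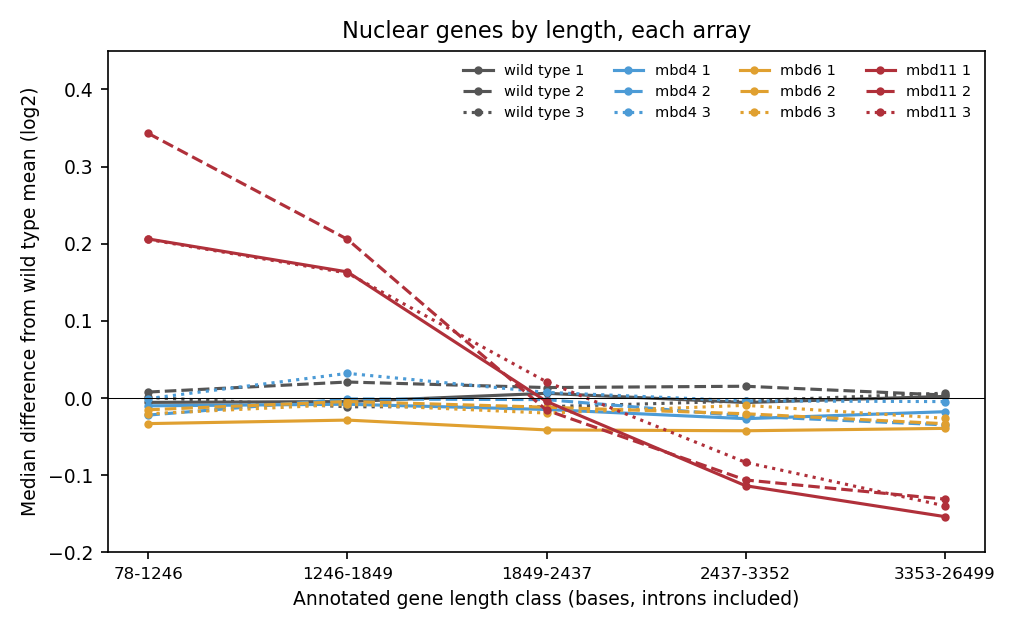
Lines give, for each of the 12 arrays, the median log2 difference from the wild type mean in 5 classes of nuclear genes by annotated length in bases; colours mark genotypes and line styles the replicates. The 3 mbd11 arrays fall from 0.21 to 0.34 in the shortest class to -0.13 to -0.15 in the longest, and the other 9 arrays stay within 0.05 of 0.

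Signal level carried a further trend, and normalization altered it. In 5 classes of wild type level the median change was 0.10, 0.04, 0.05, -0.07 and -0.20 from the dimmest to the brightest. On the deposited values the same medians were 0.40, 0.29, -0.03, -0.23 and -0.38. In the brightest class 13.4% of probe sets rose and 26.1% fell.

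Transcripts encoded by the chloroplast genome were lower in mbd11. Chloroplast genes are transcribed in long multi-gene units that are processed into smaller RNAs, and the labelling used for these arrays starts from poly(A) tails, which few chloroplast RNAs carry. Of 69 chloroplast-encoded genes 44 fell (63.8%, against 10.5% of all probe sets) and 1 rose, with a median change of -1.41, against a median of 0.06 over 13355 genes with 1 probe set each. The median was -1.25 without mbd11 replicate 2. In all 6 fits without 1 array 32 of the 44 stayed lower, and the number lower was 34, 40 and 32 without wild type replicates 1, 2 and 3. Single arrays varied around the wild type as well. The median difference of the 69 genes from wild type was -1.23, -1.49 and -1.0 in the 3 mbd11 arrays, -0.29 in wild type replicate 2 against the other wild type arrays, and -0.38 in mbd4 replicate 3. In mbd6 replicates 2 and 3, whose 3' minus 5' difference was 1.2 and 1.25, it was -0.84 and -1.17. By direct comparison the median of the 69 genes was -1.21 against mbd4, with 34 lower and 1 higher, and -0.27 against mbd6, with 18 lower and 6 higher. With the covariate over 12 arrays 23 of the 69 were lower and 6 higher, with a median of -1.04. That fit pools the spread of all genotypes, so its counts cannot be set directly against the 44 and 1 above.

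Genes for chloroplast ribosomal proteins included some of the deepest falls. For the large subunit 5 of 7 genes fell, with a median of -2.83, and for the small subunit 5 of 8, with a median of -1.52. In wild type replicates 1 to 3 rpl36 read 11.35, 11.30 and 11.40, and in mbd11 it read 7.21, 5.78 and 6.98. Its change was -4.69 (SE 0.36, adjusted p = 0.00090). The levels of rpl14 were 11.26, 11.11 and 11.01 in wild type and 8.12, 7.94 and 8.27 in mbd11, a change of -3.02 (SE 0.16, adjusted p = 0.00063). For both genes the groups are far apart, and mbd11 replicate 2 is the lowest array. The genes rpl22, rpl33 and rpl16 fell by 3.19, 2.83 and 2.65, and rps2, rps3, rps16, rps19 and rps18 of the small subunit by 2.69, 1.98, 1.92, 1.76 and 1.27. The 5 remaining ribosomal genes, rpl32, rpl20, rps4, rps15 and rps14, were not called, with changes of -0.57, 0.38, -0.49, 1.00 and 1.09.

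The deepest fall of any named gene was that of ndhA, a subunit of the NADH dehydrogenase-like complex that carries cyclic electron flow. It read 11.39, 11.34 and 11.33 in wild type and 6.52, 6.56 and 6.50 in mbd11, a change of -4.82 (SE 0.14, 28.3-fold, adjusted p = 4.3e-05). The arrays of each genotype lie close together, and mbd11 replicate 2 is not set apart here. In mbd4 replicate 3 ndhA did not differ from the other mbd4 arrays (0.00), and mbd11 was lower than mbd4 and mbd6 by 4.72 in both direct comparisons (adjusted p = 7.9e-05 and 0.00032). Of the 10 genes of this complex 7 fell, with a median of -1.29. Among them ndhK fell by 2.44, ndhH by 2.01, ndhD by 1.48, ndhJ by 1.41, ndhI by 1.17 and ndhC by 0.57. The genes ndhE, ndhF and ndhG, whose mean wild type levels were the 3 lowest of the complex, were not called. The calls of ndhK, ndhC and ndhI were lost on leaving out any wild type array (adjusted p up to 0.11, 0.21 and 0.11), that of ndhC also without mbd11 replicate 3 and that of ndhI also without mbd11 replicate 1. The ndhD call was lost when wild type replicate 1 or 3 was left out (up to 0.063).

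In photosystem II, which splits water, 10 of 15 chloroplast-encoded genes fell. The psbH gene read 9.96, 9.26 and 9.75 in wild type and 6.44, 5.76 and 5.66 in mbd11, a change of -3.70 (SE 0.27, adjusted p = 0.00090). The genes psbE and psbF, for the subunits of cytochrome b559, fell by 2.56 and 2.29, and psbL and psbJ of the same transcription unit fell by 3.04 and 1.76. The reaction centre gene psbA fell by 1.24 (adjusted p = 0.026), a call kept only in the fits without wild type replicate 2 or mbd11 replicate 2 (adjusted p up to 0.11 in the other 4). In photosystem I 4 of 5 genes fell, among them psaJ by 2.98 and psaB by 1.01, the latter a call lost on leaving out any wild type array or mbd11 replicate 1 (adjusted p up to 0.12). The psaA gene had a change of -3.53 (adjusted p = 0.0081), and its values also differed between arrays of a genotype. Wild type replicates read 9.50, 7.17 and 9.40, mbd11 replicates 4.70, 5.61 and 5.18, and mbd4 replicate 3 was 5.2 below the other mbd4 arrays. With the covariate over 12 arrays the psaA change was -0.04 (adjusted p = 0.99). A like pattern was seen in psbC, which fell by 2.55 while mbd4 replicate 3 was 2.35 below the other mbd4 arrays, and in psbD, which was not called at a change of -1.52, with mbd4 replicate 3 lower by 3.44.

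Of the 6 cytochrome b6f genes petB and petA fell and petN rose. The petB gene, for cytochrome b6, read 12.64, 12.44 and 12.57 in wild type and 9.26, 8.25 and 9.69 in mbd11, a change of -3.48 (SE 0.35, adjusted p = 0.0016), and mbd4 replicate 3 did not depart (-0.01). The petN change was 1.42 (adjusted p = 0.034), and the call was lost on leaving out any wild type array or mbd11 replicate 3 (adjusted p up to 0.12). Called falls were not shared by all genes of 1 transcription unit. Along the psbB unit the changes were 0.23 for psbB, -0.94 for psbT, -3.70 for psbH, -3.48 for petB and 0.77 for petD, and psbB, psbT and petD were not called. The psbB gene read 5.19 in wild type replicate 2, 6.83 in replicate 3 and 6.26 to 6.67 in mbd11, without a fall like that of psbH. The mean wild type level of petD was 3.66, and low signal leaves little room for a fall. The wild type SD of psbT was 1.13. Whether psbT and petD moved with psbH and petB therefore cannot be decided here. Of the 6 ATP synthase genes 4 fell, led by atpA, for the alpha subunit, by 3.95 (SE 0.31, adjusted p = 0.0010). Its values were 10.00, 9.70 and 9.97 in wild type and 6.52, 5.25 and 6.04 in mbd11. The subunit genes atpF, atpB and atpH fell by 2.35, 1.52 and 1.43, while the atpB call was lost on leaving out any wild type array (adjusted p up to 0.067). The atpE gene, with levels of 13.34 to 13.36 in wild type and 13.15 to 13.34 in mbd11, was not called at -0.10 (0.65).

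Of the 4 RNA polymerase genes rpoC1 and rpoA fell, by 1.37 and 1.1. Among the 8 other genes cemA, an envelope membrane protein, fell by 3.15. The change was -1.77 for ycf4, -1.67 for the intron maturase gene matK, -1.24 for the protease gene clpP and -0.97 for ccsA, and all 4 were called. Leaving out wild type replicate 3 lost the calls of ycf4, matK and ccsA (adjusted p up to 0.12, 0.052 and 0.085). Wild type replicate 1 was needed for ycf4 and ccsA, and mbd11 replicates 1 and 3 for ycf4. The large subunit of Rubisco, rbcL, read 9.94, 9.85 and 9.95 in wild type and 9.70, 9.81 and 9.86 in mbd11 and was not called (-0.12, adjusted p = 0.59). The difference of rbcL between mbd6 and the same wild type arrays was -1.43 (adjusted p = 0.0012). Of 16 mitochondrion-encoded genes 0 were called by limma and 3 had an unadjusted p under 0.05, with a median change of 0.10. Without mbd11 replicate 2 3 of the 16 were higher and 1 lower.

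**Figure D3:**
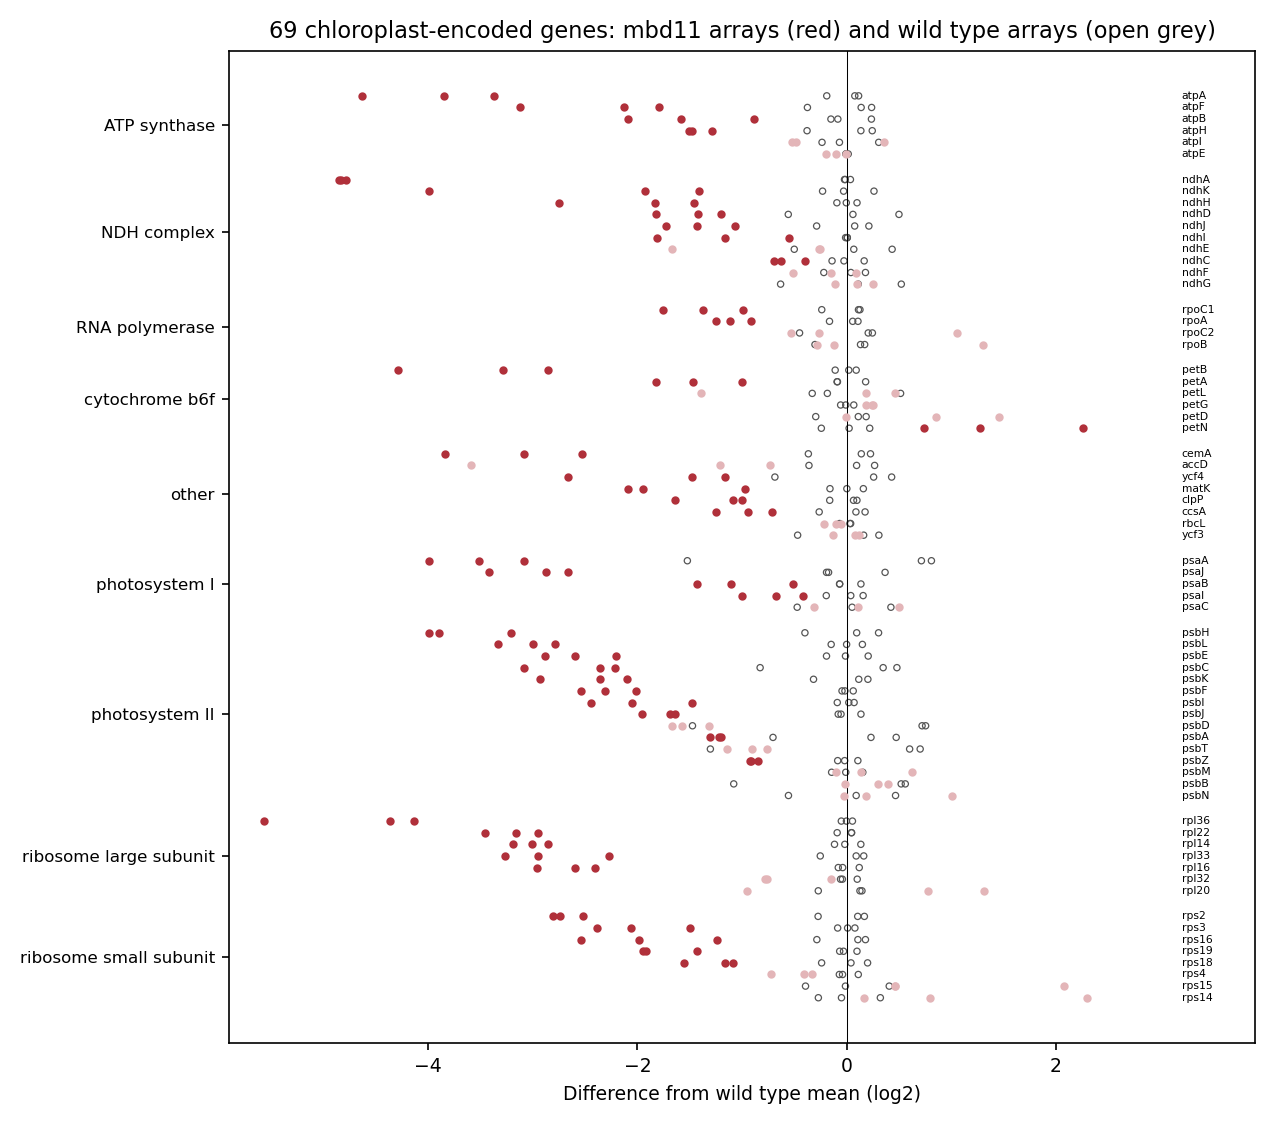
Each row is 1 of the 69 chloroplast-encoded genes, grouped by complex, with the log2 difference of each array from the wild type mean on the x axis. Filled points are the 3 mbd11 arrays, dark red where the gene was called with and without mbd11 replicate 2 and pale where it was not, and open circles are the 3 wild type arrays. The 3 ndhA points lie together near -4.82, and psaA has a wild type array far below the other 2.

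Among nuclear genes the largest rises were those of AT4G27280, EXLA1, AT5G10695 and AT3G19680. AT4G27280, an entry of the calcium and touch list, read 8.97, 9.12 and 9.10 in wild type and 13.04, 12.11 and 13.22 in mbd11, a change of 3.73 (SE 0.29, 13.2-fold, adjusted p = 0.00094). EXLA1, an expansin-like cell wall gene, read 5.49, 5.57 and 5.17 in wild type and 9.28, 8.10 and 9.08 in mbd11, a change of 3.41 (SE 0.32, adjusted p = 0.0013). In both genes mbd11 replicate 2 is the lowest mutant array and still lies far above every wild type array. AT5G10695 rose by 3.10, from 6.41 to 6.69 in wild type to 9.39 to 9.99 in mbd11. AT3G19680 rose by 3.01. Against the same wild type it was called higher in mbd6 as well, by 3.03, and in mbd4, by 0.59 (adjusted p = 0.044 by limma). Its direct difference between mbd11 and mbd6 was -0.02 (adjusted p = 0.95). The other 10 of the 14 largest rises were AT4G10270, AT1G33055, AT1G15010, AT1G67910, AT2G25735, AT1G19020, AT1G05575, AT4G37240, AT2G01300 and AT3G02480, with changes from 2.91 to 2.68. Against the same wild type EXLA1 (1.60 in mbd4 and 1.42 in mbd6), AT5G10695, AT4G10270, AT1G33055, AT2G25735, AT1G19020 and AT1G05575 were called higher in both sister mutants. AT4G27280, AT1G67910 and AT4G37240 were called higher in mbd6 but not mbd4, AT1G15010 in mbd4 but not mbd6, and AT2G01300 in neither. AT3G02480 differed in direction from the other mutants. Its levels were 5.0, 5.18 and 4.71 in wild type and 8.19, 7.69 and 7.04 in mbd11, and mbd11 exceeded mbd4 by 3.43 and mbd6 by 3.71 (adjusted p = 0.0019 and 0.0013). These 14 genes were 477 to 2040 bases long. With the length trend removed all 14 stayed called, from 3.45 for AT4G27280 to 2.36 for AT3G02480.

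Several of the largest nuclear falls were also low in mbd4 replicate 3, and others were not. GH9C2, a glycosyl hydrolase of the endoglucanase family, read 9.32, 9.23 and 9.23 in wild type and 6.78, 5.49 and 6.21 in mbd11, a change of -3.10 (SE 0.31, adjusted p = 0.0016). EXPA4, an alpha-expansin that loosens cell walls, read 9.62, 9.46 and 9.55 in wild type and 6.94, 6.62 and 6.44 in mbd11, a change of -2.88 (SE 0.18, adjusted p = 0.00063). In mbd4 replicate 3 these 2 genes were only 0.21 and 0.38 below the other mbd4 arrays (-0.21 and -0.38). Against wild type GH9C2 was at -1.04 in mbd4 and -0.83 in mbd6, and EXPA4 at -0.73 and -0.24. AT5G13030 had the deepest nuclear fall, 3.57, from 8.11, 7.58 and 8.09 in wild type to 4.21, 4.3 and 4.57 in mbd11 (SE 0.20, adjusted p = 0.00063), and mbd4 replicate 3 was 1.68 below the other mbd4 arrays (-1.68). Wild type replicate 2, the wild type array with the highest 3' minus 5' difference, was the lowest of its group there. The same was seen in AT4G32020 (-3.01, mbd4 replicate 3 at -1.56), AT4G16490 (-2.92, -2.01), FZL (-2.87, -1.29), AT5G24690 (-2.82, -2.32) and ATATH8 (-2.71, -1.87). FZL encodes a membrane-remodelling protein of the chloroplast. The remaining falls among the 14 largest were AT1G52000, AT2G37480, AT3G28220, AT1G51110, AT4G39780 and AT2G45810, from -3.01 to -2.48. In mbd4 replicate 3 AT2G45810, AT2G37480 and AT1G51110 were at -0.86, -0.78 and -0.68 against the other mbd4 arrays, and wild type replicate 2 was the lowest of its group in all 3. AT4G39780, AT1G52000 and AT3G28220 were at -0.40, -0.13 and -0.09 in mbd4 replicate 3. Wild type replicate 2 was also the lowest of its group in EXPA4, AT4G39780 and AT1G52000, but not in AT3G28220 and GH9C2. That position therefore does not set apart the falls that were low in mbd4 replicate 3. The call of AT1G51110 was lost in the fits lacking wild type replicate 1 or 3 (adjusted p up to 0.057). With the covariate over 12 arrays 13 of the 14 falls were called, and ATATH8 was not (-1.43, adjusted p = 0.060). All 14 were called in the 12-array fit without the covariate. With the covariate the changes of AT5G24690 and AT4G16490 shrank to -0.91 and -1.45.

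Counted over all probe sets, mbd4 replicate 3 was more than 0.5 below the other mbd4 arrays in 5.51% of 22746. The share was 13.4% of the 2388 that fell in mbd11, 52.7% of the 146 that fell by at least 2, and 47.7% of the 44 chloroplast-encoded genes that fell. Among the 114 that rose by at least 2 it was more than 0.5 above the other mbd4 arrays in 6.14%, against 2.57% of all.

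**Figure D4:**
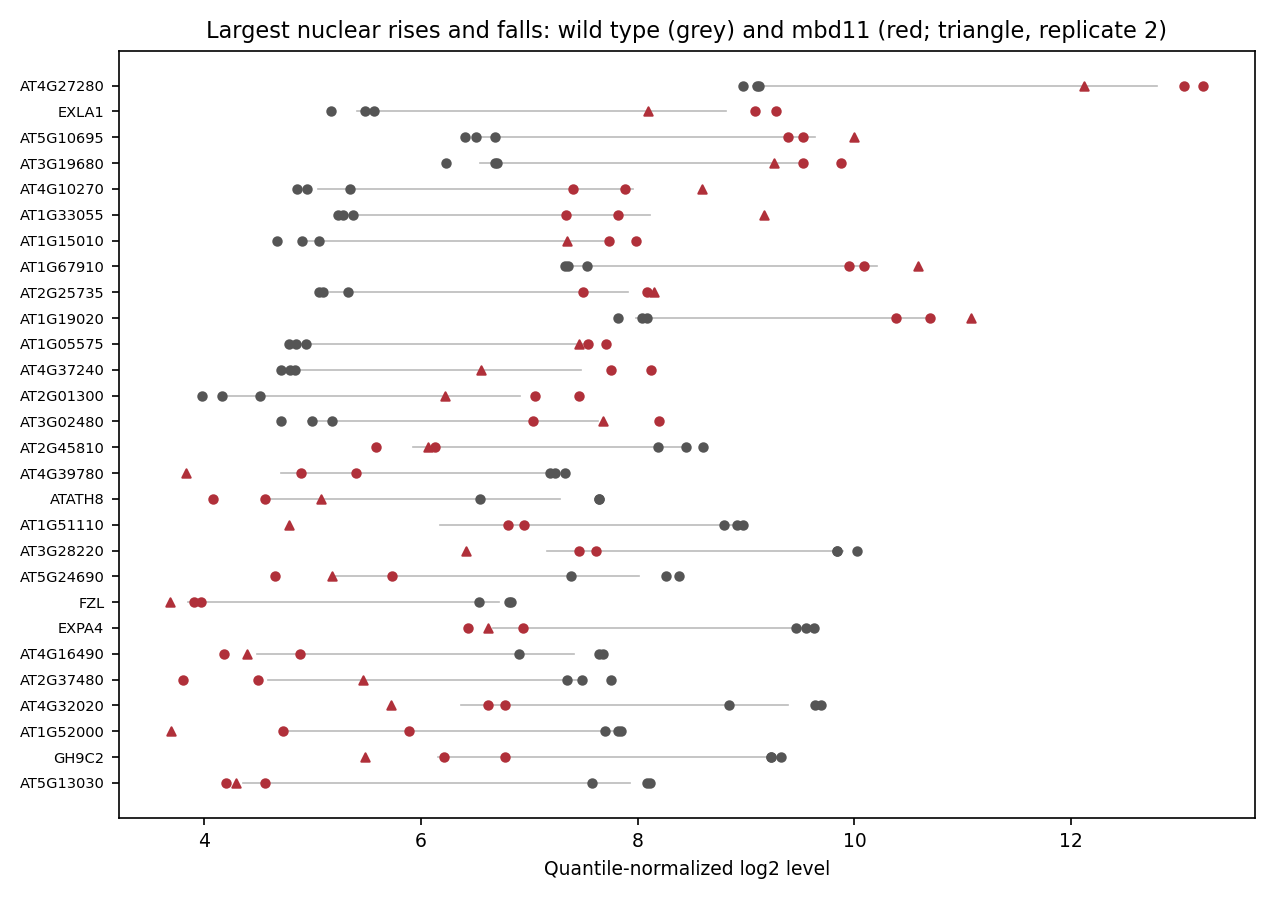
Quantile-normalized log2 levels of the 14 nuclear genes with the largest rises and the 14 with the largest falls are shown, grey for the 3 wild type arrays and red for the 3 mbd11 arrays, with triangles for mbd11 replicate 2. Lines join the group means. In all 28 genes the groups do not overlap, and the rises start from wild type levels of 3.98 to 9.12.

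Genes of rapid responses to stress and touch were higher in mbd11. Calcium signals, wounding and mechanical stimulation switch on a shared early set of calcium-binding, zinc-finger and WRKY genes within minutes. All 4 measured genes of rapid wound and stress transcription factors rose, against 10.1% of all probe sets. STZ, a zinc-finger repressor of the salt and drought response, read 7.04, 7.07 and 7.20 in wild type and 9.44, 8.29 and 9.34 in mbd11, a change of 1.92 (SE 0.31, adjusted p = 0.0062). WRKY53 rose by 1.49, WRKY22 by 1.36 and AT2G28200 by 0.89. The WRKY22 call was lost when wild type replicate 1 or 2 was left out (adjusted p = 0.052 for both). Of 9 calcium and touch genes 4 rose (44.4%, against the same 10.1%), AT4G27280, EXLA1, EXLA2 (1.95) and AT5G39670 (0.87). All 9 changes were above 0, with a median of 0.87, which was 0.56 with the length trend removed. Median gene length was 1143 bases for this list and 1522 for the rapid transcription factors. In the 2 shortest length classes 18.5% and 17.9% of nuclear genes rose. The AT5G39670 call was lost when any wild type array was left out (adjusted p up to 0.11). In mbd6 the corresponding medians against the same wild type were 1.02 and 1.07, and in mbd4 0.16 and 0.23.

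Most measured genes of the low-oxygen list rose. Its core genes respond within hours of flooding or hypoxia. Of 17 measured members 13 rose (76.5%, against 10.1% of all probe sets), the changes ran from 0.25 to 2.91, and the median was 1.18. Without wild type replicates 1, 2 and 3 the number was 7, 7 and 8. With the covariate over 12 arrays it was 12, in a fit that pools the spread of all genotypes. The measured members had a median gene length of 1117 bases, and the median change was 1.04 with the length trend removed. In the shortest length class 18.5% of nuclear genes rose, and 41.9% in the shortest class of the brighter nuclear genes. AT4G10270 read 4.86, 5.34 and 4.95 in wild type and 7.41, 8.59 and 7.88 in mbd11, a change of 2.91 (SE 0.31, adjusted p = 0.0018). AT1G05575 read 4.94, 4.85 and 4.78 in wild type and 7.54, 7.46 and 7.71 in mbd11, a change of 2.71 (SE 0.15, adjusted p = 0.00063). The mutant arrays of AT1G05575 lie within 0.25 of each other, including replicate 2. AT1G33055, AT1G19530 and AT3G10020 rose by 2.82, 2.47 and 2.26. The list was high in the sister mutants too, with medians of 1.06 in mbd4 and 0.73 in mbd6 against the shared wild type. AT1G19530 had a change of 3.85 in mbd4, and the direct difference of -1.19 between mbd11 and mbd4 did not pass the threshold (adjusted p = 0.056).

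Heat shock genes rose in part. Of 8 measured 4 rose (50%, against 10.1% of all probe sets), with a median of 1.19. Their median gene length was 1155 bases, and 18.5% of nuclear genes rose in the shortest length class. With the length trend removed the list median was 0.96. AT5G51440 rose by 2.41, AT2G29500 by 2.03, AT5G48570 by 1.79 and Fes1A, a co-chaperone of HSP70, by 0.87. AT5G48570 read 7.91, 6.16 and 8.02 in mbd11 and 5.25 to 5.86 in wild type, so replicate 2 lies near the wild type. The calls of AT5G48570 and Fes1A were lost in 5 of the 6 fits without 1 array, all but the fit without mbd11 replicate 2 (adjusted p up to 0.14 and 0.16). ATHSP22.0 and AT1G53540 were not called, at -0.36 and 0.14.

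Cold-regulated genes separated mbd11 from the sister mutants. These genes encode dehydrins and small hydrophilic proteins that protect membranes in cold and drought. All 4 measured genes of the cold and ABA list rose in mbd11, against 10.1% of all probe sets, with a median of 0.75. COR47, a dehydrin, read 9.80, 9.90 and 9.87 in wild type and 10.99, 11.16 and 11.13 in mbd11, a change of 1.24 (SE 0.14, adjusted p = 0.0024). COR15B, COR15A and LTI30 rose by 0.83, 0.68 and 0.52. Those 3 calls were each lost when any wild type array was left out (adjusted p up to 0.11, 0.13 and 0.20), and the COR15A and LTI30 calls were lost as well without mbd11 replicate 1. COR15A was also lost without mbd11 replicate 3. On the deposited values the changes of COR15A and LTI30 were 0.49 and 0.33 and were not called. In mbd4 and mbd6 the list lay below the same wild type arrays, with medians of -0.72 and -0.24, and COR15A was at -1.5 and -1.04. Against mbd4 and mbd6 the direct differences of mbd11 were larger than against wild type, 2.16 and 1.70 for COR15A (adjusted p = 0.0019 and 0.0030) and 1.75 and 1.43 for COR47 (0.0019 for both). All 4 genes were called higher than in mbd4 and higher than in mbd6.

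Defence and hormone lists had few measured members. In immune signalling PUB23, a ubiquitin ligase that dampens pattern-triggered responses, rose by 1.19 (adjusted p = 0.0045) and BIK1, a kinase downstream of immune receptors, fell by 1.28 (adjusted p = 0.016). PUB24 and PUB22 were not called, at 0.37 and -0.29. EIN3, the master transcription factor of ethylene signalling, fell by 0.72, and RTE1 was not called at 0.78. The glutaredoxin gene GRX480 rose by 1.07. Of 5 auxin genes IAA29, a repressor of auxin response, rose by 1.35 and WES1, which conjugates auxin to amino acids, by 0.58. The calls of BIK1, EIN3 and WES1 were each lost on leaving out any wild type array (adjusted p up to 0.074, 0.17 and 0.16), those of EIN3 and WES1 also without mbd11 replicate 1, and that of GRX480 on leaving out wild type replicate 1 or 2 (0.059 for both).

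Nuclear genes of chlorophyll synthesis and carbon fixation fell, whereas those of the light-harvesting antenna were not called. Of 7 chlorophyll synthesis genes 4 fell (57.1%, against 10.5% of all probe sets), with a median of -0.92. HEME1, for uroporphyrinogen decarboxylase, read 8.98, 8.90 and 8.91 in wild type and 7.36, 7.29 and 7.35 in mbd11, a change of -1.60 (SE 0.14, adjusted p = 0.0011). HEME2, for a second form of that enzyme, read 10.07, 10.14 and 10.25 in wild type and 8.71, 8.63 and 8.65 in mbd11, a change of -1.49 (SE 0.14, adjusted p = 0.0013). In these genes the mbd11 arrays lie within 0.08 of each other, and mbd4 replicate 3 differed from the other mbd4 arrays by -0.21 and 0.10. PORB, the light-dependent protochlorophyllide reductase, fell by 1.39 and CHLM, a methyltransferase of the magnesium branch, by 0.92. The CHLM call needed both wild type replicates 2 and 3 (adjusted p up to 0.084). GSA1, HEMB1 and CHLI2 were not called, at -0.50, -0.50 and 0.00. HEME1, HEME2, PORB and CHLM were each lower than in mbd4 and in mbd6 by direct comparison (adjusted p from 0.0021 to 0.0475).

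All 3 measured Calvin cycle genes fell, against 10.5% of all probe sets. PRK, phosphoribulokinase, read 12.24, 12.31 and 12.27 in wild type and 11.13, 11.06 and 11.56 in mbd11, a change of -1.02 (SE 0.18, adjusted p = 0.0083). RCA, the Rubisco activase, fell by 0.88 and SBPASE, sedoheptulose bisphosphatase, by 0.67. Calls fell to 1, 1 and 0 of the 3 without wild type replicates 1, 2 and 3, with adjusted p up to 0.052, 0.078 and 0.094 for PRK, RCA and SBPASE. The 3 light-harvesting genes LHCB4.1, LHCB4.2 and LHCB4.3 had changes of -0.40, -0.39 and -0.23, 0 were called by limma and 2 had an unadjusted p under 0.05. Of 5 nuclear photosystem and electron transport genes ATPC1, the gamma subunit of the chloroplast ATP synthase, fell by 0.91 and PSBY rose by 0.53. The PSBY call was lost in 5 of the 6 fits without 1 array, all but that without mbd11 replicate 2 (adjusted p up to 0.18), and that of ATPC1 on leaving out wild type replicate 1 or 2 (up to 0.058). Of 6 flavonoid and anthocyanin genes AT5MAT, an anthocyanin malonyltransferase, fell by 0.82, a call that needed wild type replicates 1 and 3 (adjusted p up to 0.08 otherwise). DFR, dihydroflavonol reductase, was not called in mbd11 at 0.28, and its changes in mbd4 and mbd6 were 2.24 and 1.82. The direct DFR difference between mbd11 and mbd4 passed the threshold (adjusted p = 0.0020) and that between mbd11 and mbd6 did not (0.056).

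**Figure D5:**
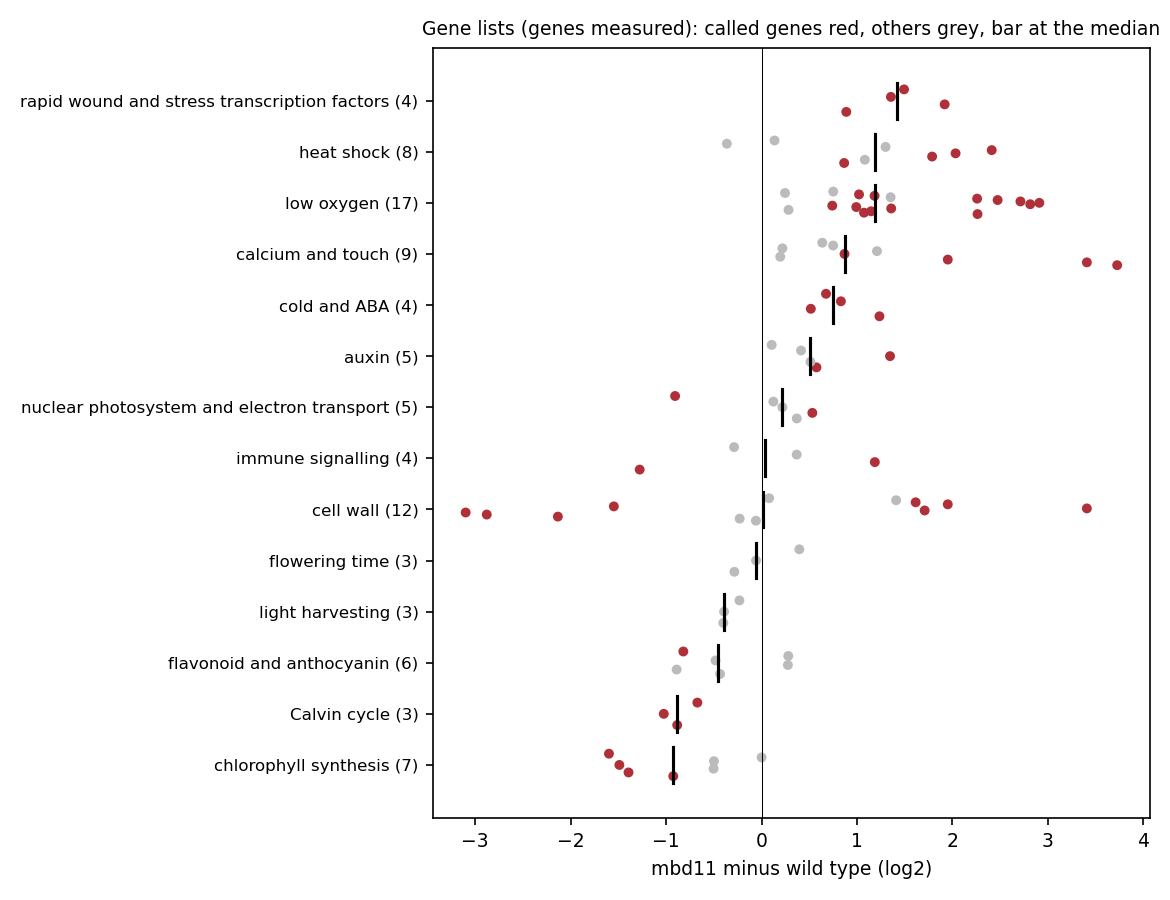
Each point is a measured gene of a list with at least 3 measured members, placed by its change in mbd11 against wild type (log2), red where it was called with and without mbd11 replicate 2 and grey otherwise. Black bars are list medians and numbers in parentheses are genes measured. The rapid stress and low-oxygen lists lie wholly above 0, and the Calvin cycle list wholly below.

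Cell wall genes moved in both directions. Of 12 measured 4 rose and 4 fell. The expansin-like genes EXLA1 and EXLA2 rose, as did XTH18 (1.71) and XTH33 (1.62), which remodel xyloglucan. The XTH33 call was lost on leaving out any wild type array (adjusted p up to 0.077). The alpha-expansins EXPA4, EXPA15 and EXPA9 fell by 2.88, 2.13 and 1.55, together with GH9C2. EXPA15 read 9.21, 9.05 and 9.45 in wild type and 6.73, 7.8 and 6.78 in mbd11. EXPA18, an expansin of root hairs and 1 of the 2 measured root markers, rose by 1.17, a call lost on leaving out any wild type array (adjusted p up to 0.072), and EXPA7, the other marker, was not called at 0.18. The stomatal lineage genes FMA and SPCH were not called, at -1.19 (adjusted p = 0.059) and -0.23.

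Few silencing-related loci were measured. QQS, a gene whose expression differs with its methylation state among natural strains, rose by 2.15 (SE 0.26, adjusted p = 0.0027), from 4.84, 4.42 and 4.83 in wild type to 6.43, 7.34 and 6.76 in mbd11. It was higher than in mbd4 by 1.27 and than in mbd6 by 1.42 (adjusted p = 0.018 and 0.010). Both sister mutants were themselves above the same wild type arrays in QQS, mbd4 by 0.99 and mbd6 by 0.83. The demethylase gene DME has a pair of probe sets that disagree. The brighter one was not called at -0.01 (adjusted p = 0.97), and the other fell by 0.83, a call lost when wild type replicate 1 or 3 was left out (adjusted p up to 0.085). Of 923 annotated pseudogenes 11 rose and 4 fell (1.63% in all, against 18.9% of genes with 1 probe set each). Calls were also rare among dim probe sets of any kind, with 1.32% higher and 0.15% lower in the dimmest class of wild type level. No share matched for signal level was taken. Of the 20 measured genes nearest to MBD11 on chromosome 3, 10 on either side, 5 rose (25%, against 10.1% of all probe sets). They were AT3G15780 (1.18), AT3G15770 (1.63), AT3G15760 (1.10), AT3G15710 (0.62) and AT3G15900 (1.07). AT3G15770 was also higher than wild type in mbd4 (1.19) and mbd6 (1.16), and mbd11 did not differ from either by direct comparison (adjusted p = 0.20 and 0.11). The 5 genes are 929 to 1705 bases long, and 18.5% and 17.9% of nuclear genes rose in the 2 shortest length classes. With the length trend removed AT3G15710 was not called (0.48, adjusted p = 0.062). The AT3G15760 call needed wild type replicate 3 (adjusted p = 0.052 otherwise), and that of AT3G15710 was lost on leaving out any wild type array (up to 0.12).

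Symbol families were examined after their values had been seen, and their counts stand beside 10.1% of all probe sets that were higher. That share was 18.5% in the shortest length class and 41.9% in the shortest class of the brighter nuclear genes. Median gene lengths were 809 bases for RALFL, 1417.5 for LSM, 1512.5 for NRPB, 1904 for VPS and 1905 for ATG. How far length accounts for these counts was not tested. All 5 RALFL genes that rose, of 10 measured, were called in each of the 6 fits without 1 array. They were RALFL32 (1.67), RALFL27 (1.61), RALFL31 (1.61), RALFL33 (1.51) and RALFL24 (1.08), which encode small secreted signalling peptides. Of 8 ATG genes of autophagy 5 rose, ATG8D by 1.3, ATG8E by 1.04, ATG8H by 0.95, ATG8G by 0.90 and ATG8B by 0.76. Among 10 VPS genes 5 rose, led by VPS60.1 (1.66), VPS24.1 (1.58) and VPS2.1 (1.36), relatives of the membrane-scission subunits of endosomes, while VPS9B fell by 1.14, a call lost when wild type replicate 1 or 2 was left out (adjusted p up to 0.054). The VPS46.2 call was lost on leaving out any wild type array (up to 0.073) and that of VPS60.2 without wild type replicate 1 (0.061). Of 6 NRPB genes of RNA polymerase II 3 rose, with NRPB9B at 1.68. The calls of NRPB12 and NRPB9A were lost on leaving out any wild type array (adjusted p up to 0.088 and 0.15), and that of NRPB9A also without mbd11 replicate 3. Of 6 LSM genes of RNA-binding rings 4 rose, by 0.52 to 1.04. The ATG and LSM families lost calls without a wild type array. Without wild type replicates 1, 2 and 3 the ATG count was 1, 2 and 1 and the LSM count 0, 0 and 0. With the length trend removed the family medians were 0.46 for RALFL, 0.73 for ATG, 0.63 for VPS, 0.48 for NRPB and 0.47 for LSM. The median of all nuclear genes was -0.01 on that scale.

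Members of other families, also chosen after their values were seen, fell. Their counts stand beside 10.5% of all probe sets that were lower and 14.5% of the longest length class. Median gene lengths were 6041 bases for VHA and 4007 for ALDH, and how far length accounts for these falls was not tested. Of 3 measured VHA genes of the vacuolar proton pump, VHA-A1 and VHA-A3 fell by 1.58 and 1.46. Both calls were kept in each of the 6 fits. Among 2 TUA and 5 TUB genes of tubulin TUA6 fell by 1.12, TUB5 by 0.96 and TUB9 by 0.99. The TUB9 call was lost on leaving out any wild type array (adjusted p up to 0.086). Of 8 aldehyde dehydrogenase genes ALDH22A1, ALDH2C4 and ALDH10A8 fell by 1.13, 0.79 and 0.60, and 0 of the 8 were called on leaving out any wild type array or mbd11 replicate 1.

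Direct comparison with the sister mutants gave counts close to that with wild type. Between mbd11 and mbd4 3995 probe sets were called (17.6%), 2015 higher and 1980 lower in mbd11, and between mbd11 and mbd6 4449 (19.6%), 2238 higher and 2211 lower. Of the 4690 probe sets called against wild type, 2668 (11.7% of all tested) were called in the same direction against both. These comparisons all use the same 3 mbd11 arrays, and those of each mutant with wild type all use the same 3 wild type arrays. EXPA4 (-2.13 against mbd4 and -2.62 against mbd6) and FZL (-2.33 and -2.69) were among them. Several of the deepest falls were not. AT3G28220 was at -2.73 against wild type, -1.0 against mbd4 (adjusted p = 0.065) and -0.10 against mbd6 (0.89). AT1G52000 and psaA did not pass against mbd4 (adjusted p = 0.052 and 0.24), and atpA did not pass against mbd6 (0.064). Of the rises, AT1G33055 was at 2.82 against wild type, -0.46 against mbd4 (adjusted p = 0.51) and 1.35 against mbd6 (0.069). The count without mbd4 replicate 3 was 1987, and without mbd11 replicate 2 it was 6414 against mbd4 and 7544 against mbd6.

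Of the 73 named probe sets 51 were called in each of the 6 fits without 1 array. All 73 were called without mbd11 replicate 2. With the covariate over 12 arrays 62 remained called in the same direction, against 73 in the 12-array fit without it. The 11 lost there were psaA, ATATH8, AT5G39670, AT5G48570, Fes1A, COR15A, LTI30, AT5MAT, DME, WES1 and EXPA15. On the deposited values 65 of the 73 were called. The 8 lost were AT5G48570, Fes1A, COR15A, LTI30, AT5MAT (-0.53, adjusted p = 0.11), PSBY (0.28, 0.24), DME and WES1 (0.40, 0.13). With the length trend removed 57 of 64 nuclear ones were called. The calls of AT5G39670, EIN3, Fes1A, COR15A, LTI30, PSBY and DME were lost there, with LTI30 at 0.21 (adjusted p = 0.36) and PSBY at 0.26 (0.28).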

How the data were processed

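Total RNA of whole seedlings was labelled by the 3' IVT protocol and hybridized to Affymetrix arrays, 1 array per sample, per the labels. The authors deposited log2 intensities; the submitters' processing notes name RMA and R 2.11. The sources give no scan date and no labelling batch. The table held 22810 probe sets, of which 64 controls only described the arrays. Of the 22746 tested, 13513 had 1 gene in the platform annotation, 503 had several and 8730 had no gene, and 13436 matched RefSeq's table of TAIR10.1, whose spans gave gene lengths. Of 569 members of 29 gene lists, 107 had a probe set of their own, and 5 lists (MBD family, aquaporin, jasmonate, sugar starvation and seed storage) had none.

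The 6 arrays were quantile-normalized and fitted with limma 3.58.1 (R 4.3.3), with 1 mean per genotype, 4 residual and 3.32 prior degrees of freedom, two-sided p-values and Benjamini-Hochberg adjustment over all probe sets. Lists are described by counts and medians, with no test of the list. The named genes were the 14 largest nuclear rises and falls, the 8 largest chloroplast-encoded falls and all rises, and up to 5 per list, among probe sets of 1 gene called with and without mbd11 replicate 2 whose groups did not overlap; other chloroplast-encoded genes and family members were added after their values were seen. For a gene with several probe sets, the larger change was named and lists used the brightest. The members, lists and rules were chosen with earlier results of these data known. The fit was tested on simulated data with the spread of wild type in both groups. The median SD was 0.11 in wild type and 0.33 in mbd11, so that test does not cover the unequal spread. Array number, 3 per genotype, limits the precision. Promoter sequences were not used here.

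Alternatives were the deposited values, median centring, all 12 arrays, array weights, a level-dependent prior, the 3' minus 5' covariate, a limit on dim probe sets (mean under 5), a floor of 4, a replicate block and leaving out each array. Removal of the length trend (lowess per array) and the covariate with 12 arrays were added after seeing the data.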

Additional observations from a re-analysis of the deposited data

Results flagged for a closer look

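The 3' minus 5' difference of plant control transcripts, a measure outside the main comparison, was above the highest wild type value of 1.5 in all 3 mbd11 arrays, at 1.98, 1.99 and 2.58 in replicates 1, 2 and 3. It moved with the fall of psaA, which was also low in mbd4 replicate 3, and its part in the mbd11 changes was not tested.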

How the results depend on the processing

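Against wild type the count of 4691 called probe sets was 5100 on the deposited values, 5264 after median centring and 3263 with a replicate block. It was 7867 with all 12 arrays in 1 fit, 0 with the 3' minus 5' covariate on 6 arrays, 2386 at a change of at least 1, 2058 with the length trend removed (nuclear genes with a length only) and 1540 when called without each array in turn. Leaving out 1 array gave 1634 to 7802. The count called with and without mbd11 replicate 2, 4690, was 7234 with all 12 arrays. Against mbd4, 3995 became 7794 with all 12 arrays and 3432 with the block, and 850 to 6414 without 1 array; the lowest were 895 and 850 without mbd4 replicates 1 and 2. Against mbd6, 4449 became 7988 and 3615, and 1545 to 7544; without mbd6 replicates 1, 2 and 3 it was 1702, 1603 and 1545. Deviations from the group means correlated at 0.04, -0.15 and -0.09 between arrays of the same replicate number, and at -0.17 to 0.23 between the others. With 3 deviations tied to each group mean, these values cannot settle whether replicate numbers pair the arrays. Of the 73 named probe sets, 0 were called with the covariate on 6 arrays, 64 with the block and 53 to 73 without 1 array, and no named change reversed in any of these fits. The covariate raised the median SE 2.14 times. Median centring shifted the median of all probe sets from 0.02 to 0.22, so small rises counted on that scale are relative to that shift. The cause of these shifts was not tested. Signal near background limits the changes that dim genes can show.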

Other observations

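A small set of probe sets separated mbd11 replicates 1 and 3 from every other array, a pattern found by looking at the values. Of 18 probe sets under 5 on all wild type arrays and above 7 in mbd11 replicates 1 and 3, 10 read under 6 in mbd11 replicate 2. These 10 read 8.16 to 10.73 in replicate 1, 7.66 to 9.98 in replicate 3 and 2.86 to 5.66 in replicate 2. On the mbd4, mbd6 and wild type arrays they stayed at or under 4.76. The probe set 253904_at, with no gene assigned, read 3.12, 3.27 and 3.33 in wild type and 10.73, 5.66 and 9.98 in mbd11 (change 5.55, adjusted p = 0.016 by limma). The probe set 253902_at, also unassigned, read 3.32, 3.35 and 3.22 in wild type and 9.71, 4.45 and 9.11 in mbd11 (change 4.46, adjusted p = 0.042). Only 1 of the 10 is assigned to a gene, AT2G15010, which read 3.94, 4.14 and 3.87 in wild type and 8.55, 4.62 and 7.91 in mbd11 and was not called with all 6 arrays (change 3.04, adjusted p = 0.055). Without replicate 2 its change was 4.40 (adjusted p = 3.7e-05). What differs between these arrays was not tested.

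Of the 260 probe sets that changed by at least 2, 142 have no single gene assigned here. The deepest falls among those were 244981_at, from 9.37, 9.27 and 9.54 in wild type to 4.21, 5.60 and 5.05 in mbd11 (change -4.44, adjusted p = 0.00090), and 267516_at, from 8.90, 7.42 and 8.97 to 4.59, 3.83 and 4.94 (change -3.97, adjusted p = 0.0024).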
